A study of Mus musculus with 12 samples.

Results

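The genes described here run the cell division cycle: cyclins and their kinases, kinase inhibitors, the Rb and E2F regulators, the machinery of DNA replication and the machinery of mitosis. They were chosen by name, as 44 mouse genes, and 43 of them were measured among the 18193 genes of the array; Ccnb1 was not analysed here, because no probe set carried its symbol alone. The cells were pre-pro-B cells (Ebf1-/-) from the C57BL/6 strain, lymphoid progenitors that lack Early B-cell factor 1, a transcription factor needed to enter the B lineage. They were transduced with a retrovirus for EBF1, for PAX5 (a B-lineage transcription factor that acts downstream of EBF1) or with the MigR1 control virus, all carrying GFP. Total RNA was hybridised to 12 Affymetrix arrays: 3 EBF1 arrays with 3 control arrays of a first set, and 3 PAX5 arrays with 3 control arrays of a second set. Every group, the controls included, was therefore Ebf1-/- by genotype, and the EBF1 group carried EBF1 on its virus. All groups had been grown on OP9 cells, a stromal line from mouse marrow, with stem cell factor, Flt3 ligand and interleukin-7. They were sorted for GFP 2 days after infection. Nothing in the labels tells if the replicates were independent cultures or animals, and the p-values therefore cover array-to-array spread, which may be technical.

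Division in mammalian cells starts when D-type cyclins with CDK4 or CDK6 phosphorylate the retinoblastoma protein, which frees E2F factors to transcribe cyclin E and the genes of DNA replication. CDC6 and CDT1 then load the MCM helicase onto origins, and in the later phases FOXM1 and related factors drive cyclin B, CDK1, Polo-like and Aurora kinases and the spindle checkpoint. In early B-cell progenitors of the mouse, interleukin-7 is known to sustain proliferation, and cyclins D2 and D3 are the D-type cyclins best known for it.

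Values are intensities per probe set on the deposited linear scale, with 1 probe set per gene, the brightest. Differences are on the log2(intensity + 16) scale, which understates the change of dim genes, and were tested with limma over all 18193 genes with Benjamini-Hochberg adjustment and a threshold of 0.05. Control arrays of equal number in both sets agreed so closely that each pair was counted as 1 sample, and so were PAX5 arrays 2 and 3: their log2 values differed by a robust SD of 0.0392 to 0.0942 and of 0.0774, where the remaining pairs inside a group gave 0.211 to 0.359. The tests thus rest on 3 EBF1, 2 PAX5 and 3 control samples, and this number limits their precision. The label was checked against markers. In the first-set controls Flt3 read 1823 to 2927, Cd34 read 2146 to 3103 and Il7r read 737 to 3111, while Kit read 99.4 to 253 and the B-cell gene Ms4a1 read 14.5 to 22.4. The T-cell gene Cd3e lay between 4.1 and 23.3 on all 12 arrays. The summed level of 7 B-lineage markers was 30045, 20893 and 12180 on the EBF1 arrays, against 891, 383 and 886 in their controls, and 5679, 4518 and 4202 on the PAX5 arrays, against 1294, 729 and 1331 in theirs. With PAX5 the higher sum came from Blnk, an adaptor of the pre-B-cell receptor, which read 4877, 3639 and 3351 against 116, 29.8 and 47.0; the other 6 markers summed to 802, 879 and 851 on the PAX5 arrays, against 1178, 699 and 1284. The 7 progenitor markers summed to between 15229 and 15708 with EBF1, against 12646 to 19853, a sum of members on both sides: 5 of the 7 lay below 0 with EBF1, among them Flt3 at 1028 to 1709 against 1823 to 2927, whereas Ly6d, a surface marker of B-committed lymphoid progenitors, read 796 to 4077 against 87.7 to 118. They summed to between 15465 and 17174 with PAX5, against 12613 to 19828. The 5 myeloid markers summed to between 369 and 717 with EBF1, against 869 to 2155, and to between 979 and 1610 with PAX5, against 1411 to 2633. These sums too had members on both sides, with 2 of the 5 above 0 in each comparison. Mpo read 199 to 537 with EBF1, against 660 to 1876, whereas Csf1r read 38.5 to 49.4, against 30.2 to 35.2. With PAX5 Mpo read 192 to 798, against 695 to 1901, whereas Itgam read 199 to 276, against 97.9 to 170. The 6 T and NK markers summed to between 3859 and 8750 with EBF1, against 1064 to 1273, of which Gzma gave 2877 to 8223. With PAX5 they summed to between 1338 and 1848, against 1143 to 1343. Of the 6, 4 lay below 0 with EBF1 and 5 with PAX5. Nkg7 was the 1 above 0 with PAX5, at 865 to 1505, against 264.5 to 514.

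No cell cycle gene passed the test in either comparison. With EBF1, 0 of the 43 genes had a limma adjusted p under 0.05, where 0.220% of all genes did (40 genes, or 5 with the replicate number as a block); 4 were higher and 0 lower at an unadjusted p under 0.05, where 6.29% of all genes were higher and 5.33% lower at that level. Their EBF1 differences ran from -0.49 to 0.71 with a median of 0.03, beside a median of 0.01 over all genes, and 25 of the 43 were above 0. With PAX5, 0 of the 43 passed, where 0.874% of all genes did (159 genes, or 251 with the block); 1 was higher and 2 lower at an unadjusted p under 0.05, where 5.33% and 4.13% of all genes were (9.45% in all). The PAX5 differences ran from -0.48 to 0.63 with a median of -0.14, beside -0.01 over all genes. With PAX5, 9 of the 43 were above 0, or 20.9%, beside 48.1% of all genes.

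A p that misses the threshold does not show that levels were alike, so the intervals are given too. For 37 of the 43 genes the 95% interval of the EBF1 difference lay within a 2-fold change in either direction (86.0%, beside 92.1% of all genes), and for 30 within a 1.5-fold change. For PAX5 these counts were 40 (93.0%, beside 90.2% of all genes) and 20. The plot of all 43 differences shows the intervals by role.

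**Figure D1:**
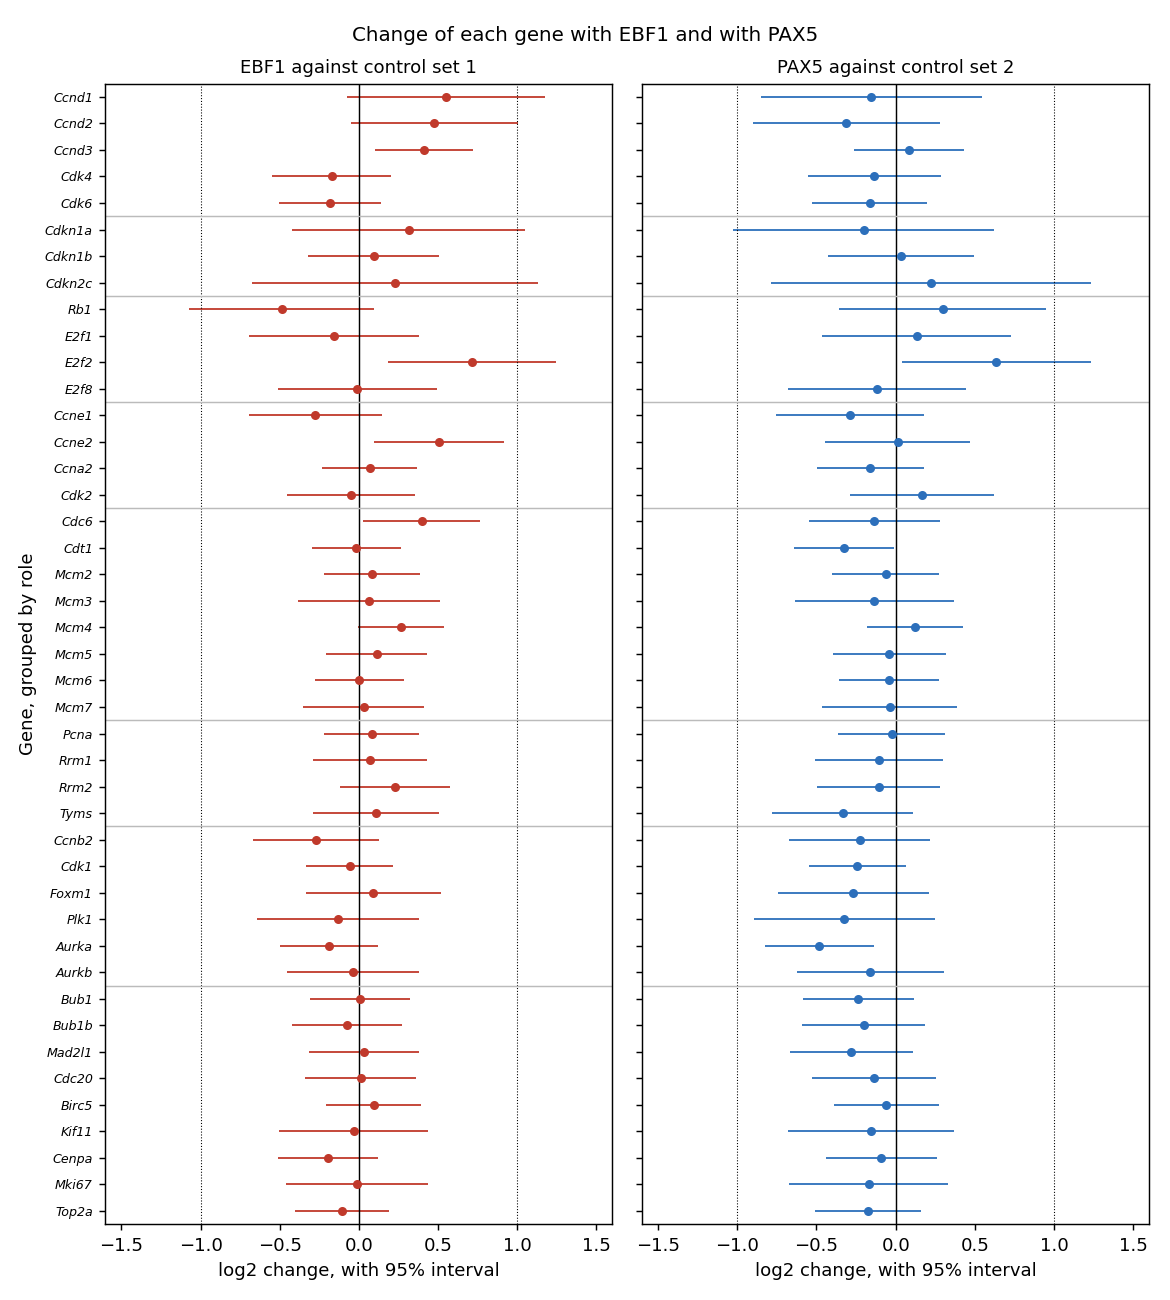
Log2 differences of the 43 cell cycle genes with their 95% intervals (horizontal axis, log2(intensity + 16) scale), by role, for EBF1 against first-set controls and PAX5 against second-set controls, with dotted lines at a 2-fold change. The EBF1 differences lie on both sides of 0, from -0.49 to 0.71, and 34 of the 43 PAX5 differences lie below 0.

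Promoter sequence was set beside the arrays for a few genes, because replication genes and mitotic genes are known to be driven through different promoter elements. RefSeq promoter windows of build GRCm38.p6 were matched by symbol for 35 of the 43 genes, giving 40 windows of 250 bases upstream of a transcription start. Each was searched on both strands for 3 kinds of word: E2F-type words (TTTCCCGC, TTTCGCGC, TTTGCCGC or TTTGGCGC), CHR-type words of mitotic genes (TTTGAA or TTTAAA) and the CCAAT box (CCAAT). An E2F-type word was found in 6 of the 40 windows (15.0%), beside 1.86% of the 32851 windows of all genes; these were the windows of Cdc6, Cdk1, Cdk2, Mcm5, Mcm6 and Mcm7. A CHR-type word was found in 15 of the 40 (37.5%, beside 25.2% of all windows) and a CCAAT box in 26 (65.0%, beside 33.8%). A match is a run of letters and not a shown binding site. The windows below belong to E2f2, the gene with the largest difference with both factors; to Cdc6 and Mcm5, which license origins; to Cdk1 and Aurka, which act at mitosis; and to Cdkn2d, an inhibitor outside the 43 that differed between the factors. Capitals mark the words found on either strand, which in Mcm5 overlap, and each window is written 5′ to 3′ on the strand of its gene. E2f2 has a further start in the same table, and the window shown is chr4:136172024-136172273 on the plus strand. The others are Cdc6 at chr11:98907901-98908150 (plus), Mcm5 at chr8:75109259-75109508 (plus), Cdk1 at chr10:69352913-69353162 (minus), Aurka at chr2:172370571-172370820 (minus) and Cdkn2d at chr9:21291210-21291459 (minus).
E2f2: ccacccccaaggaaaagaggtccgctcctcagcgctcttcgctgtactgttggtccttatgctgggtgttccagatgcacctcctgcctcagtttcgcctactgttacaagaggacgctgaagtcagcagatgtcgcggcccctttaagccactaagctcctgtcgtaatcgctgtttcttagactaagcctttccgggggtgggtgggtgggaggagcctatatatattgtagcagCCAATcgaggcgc
Cdc6: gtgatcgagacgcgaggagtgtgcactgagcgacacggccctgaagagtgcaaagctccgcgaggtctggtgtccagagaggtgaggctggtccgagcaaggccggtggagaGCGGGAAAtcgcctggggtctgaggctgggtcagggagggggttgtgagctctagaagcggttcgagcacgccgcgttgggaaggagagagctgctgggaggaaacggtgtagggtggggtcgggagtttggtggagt
Mcm5: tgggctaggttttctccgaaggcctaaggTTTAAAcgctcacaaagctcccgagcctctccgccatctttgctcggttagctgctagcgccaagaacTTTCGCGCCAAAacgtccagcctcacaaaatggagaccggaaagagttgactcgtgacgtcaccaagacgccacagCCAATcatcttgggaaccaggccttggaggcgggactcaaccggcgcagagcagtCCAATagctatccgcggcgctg
Cdk1: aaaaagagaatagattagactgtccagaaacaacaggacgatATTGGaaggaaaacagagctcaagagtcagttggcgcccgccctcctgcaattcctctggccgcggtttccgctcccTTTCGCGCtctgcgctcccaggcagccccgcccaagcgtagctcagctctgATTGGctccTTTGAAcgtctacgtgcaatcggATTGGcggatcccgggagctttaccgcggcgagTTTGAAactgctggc
Aurka: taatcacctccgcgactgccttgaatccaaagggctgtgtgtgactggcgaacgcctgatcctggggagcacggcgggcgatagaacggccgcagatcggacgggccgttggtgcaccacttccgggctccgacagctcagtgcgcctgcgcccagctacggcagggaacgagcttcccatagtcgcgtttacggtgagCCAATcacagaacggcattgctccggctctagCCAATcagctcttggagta
Cdkn2d: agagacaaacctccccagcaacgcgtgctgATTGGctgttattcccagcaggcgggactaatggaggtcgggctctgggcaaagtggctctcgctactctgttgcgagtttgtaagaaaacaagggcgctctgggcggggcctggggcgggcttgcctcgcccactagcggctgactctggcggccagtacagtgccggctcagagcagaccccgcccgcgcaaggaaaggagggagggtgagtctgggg

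Before the genes by role, the arrays themselves have to be described, because the cell cycle genes moved together from array to array within every group. EBF1 array 2 was the lowest of its group for 33 of the 43 genes (76.7%, beside 33.8% of all genes), and control array 2 of the first set was lowest for 36 (83.7%, beside 31.4%). PAX5 array 1 was the lowest of its group for 35 of the 43 (81.4%, beside 41.9% of all genes), and control array 2 of the second set for 36 (beside 36.2%). As log2 deviations from the control mean of the set, the median over the 43 genes was 0.14, -0.21 and 0.12 on EBF1 arrays 1, 2 and 3, against 0.03, -0.18 and 0.14 on the first-set controls. It was -0.25, 0.01 and -0.03 on the PAX5 arrays, against 0.00, -0.16 and 0.14 on the second-set controls. Over all genes the same medians stayed between -0.04 and 0.03. Within each group these medians thus spread more widely than the median differences of 0.03 and -0.14 between groups, and the low PAX5 median came from 1 of the 2 PAX5 samples. In such bulk samples, fewer dividing cells and less RNA per dividing cell cannot be told apart.

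**Figure D2:**
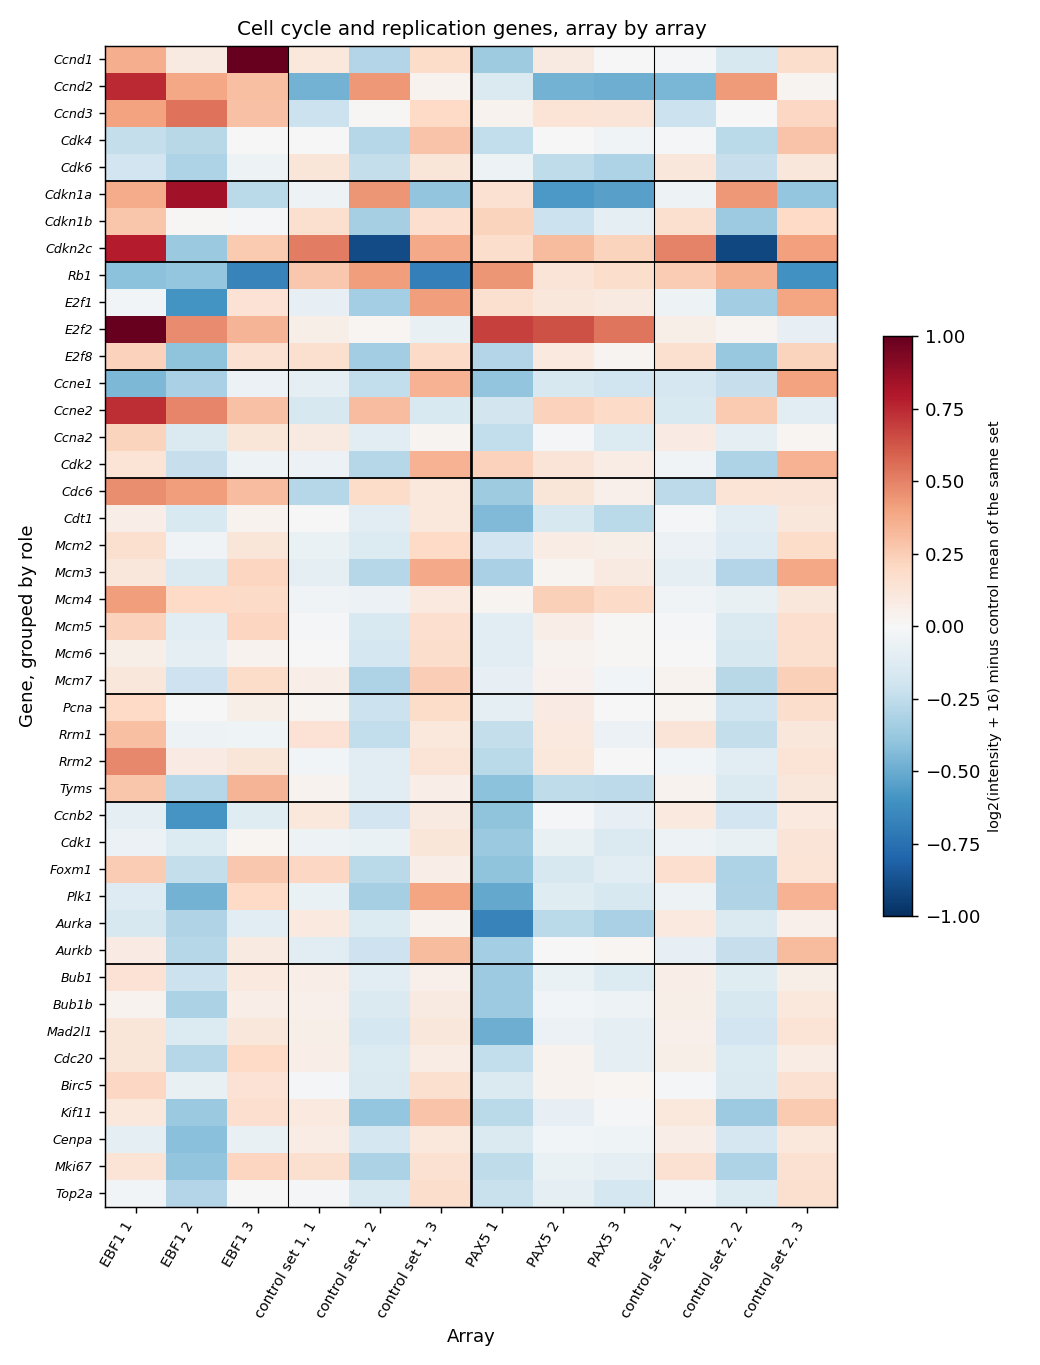
Log2 deviation of each of the 43 genes (rows, by role) from its control mean on each of the 12 arrays (columns), with colours limited to between -1 and 1. EBF1 array 2, PAX5 array 1 and control array 2 of both sets are low across most of the replication and mitotic genes.

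Residual stroma was measured the same way. The summed level of 12 OP9-type stroma markers was 2689, 837 and 11830 on the EBF1 arrays, against 2226, 592 and 757 in their controls, and 784, 1796 and 1793 on the PAX5 arrays, against 2590, 782 and 1109 in theirs. EBF1 array 3 was far above the rest, and 0 of the 12 markers passed the limma test in either comparison. With EBF1 11 of the 12 lay above 0 (median 1.45), and with PAX5 9 of the 12 did (median 0.17). Their median log2 deviation was 0.99, -0.16 and 2.96 on the EBF1 arrays, against 0.64, -0.41 and -0.26 in their controls. The part of residual stroma in the results below was not tested, except where a value without EBF1 array 3 is given.

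**Figure D3:**
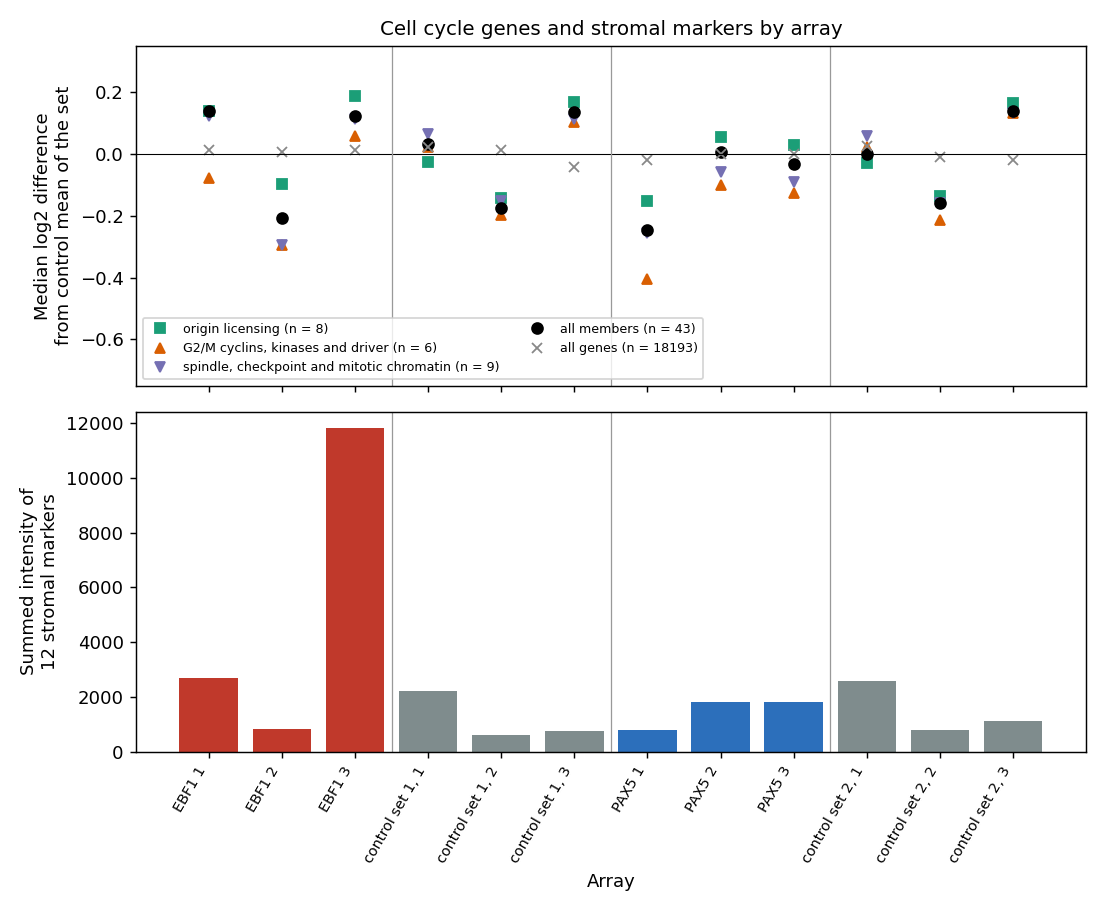
The upper panel gives, for each of the 12 arrays, the median of the log2 differences to its set's control mean for all 43 genes, for origin licensing, G2/M and spindle genes apart and for all 18193 genes; bars in the lower panel give the summed intensity of 12 stroma markers. EBF1 array 2, PAX5 array 1 and control array 2 of both sets are the low arrays of their groups for the 43 genes, and EBF1 array 3 has the highest stroma sum, 11830.

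The 3 D-type cyclins lay above the controls with EBF1, by 0.41 to 0.55, while their kinases lay slightly below; none passed the test. Ccnd2 (cyclin D2) read 5133, 4012 and 3759 on the EBF1 arrays, against 2202, 4139 and 3134 in the first-set controls. Control array 2 lay among the EBF1 arrays, so the groups overlapped, and the difference was 0.48 (SE 0.23, 95% interval -0.05 to 1.01, limma adjusted p = 0.48), or 0.24 without control array 1. On the PAX5 arrays it read 2780, 2209 and 2187, against 2231, 4136 and 3139 in the second-set controls, a difference of -0.31 (SE 0.26, limma adjusted p = 0.804) that was -0.10 without control array 2, -0.54 without control array 1 and -0.48 without PAX5 array 1. All 7 probe sets of Ccnd2 lay on these same sides, between 0.48 and 0.99 with EBF1 and between -0.43 and -0.16 with PAX5. The probe sets share their arrays and are not replicates.

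Ccnd3 (cyclin D3) read 2580, 2848 and 2391 on the EBF1 arrays, against 1679, 1970 and 2242 in the first-set controls. The groups did not overlap, and the difference was 0.41 (SE 0.14, 95% interval 0.10 to 0.72, a 1.33-fold level, limma adjusted p = 0.30). Its other 2 probe sets disagreed, at -0.27 and 0.41. With PAX5 it read 2012, 2159 and 2153, against 1691, 1973 and 2273 in the controls, a difference of 0.08.

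Ccnd1 (cyclin D1) was dim, at 64.2, 50.3 and 128 on the EBF1 arrays, against 51.2, 35.1 and 55.1 in the first-set controls. The groups overlapped, and the difference of 0.55 (SE 0.27, limma adjusted p = 0.494) was 0.22 without EBF1 array 3, the array with the highest stroma markers. Its other 2 probe sets lay at 0.06 and -0.01. With PAX5 it read 42.3, 63.3 and 58.6, against 58.0, 50.5 and 68.1, a difference of -0.15. Cdk4 and Cdk6, the kinases of the D-type cyclins, lay at -0.17 and -0.18 with EBF1 and at -0.13 and -0.16 with PAX5, with limma adjusted p-values of 0.68 to 0.91.

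**Figure D4:**
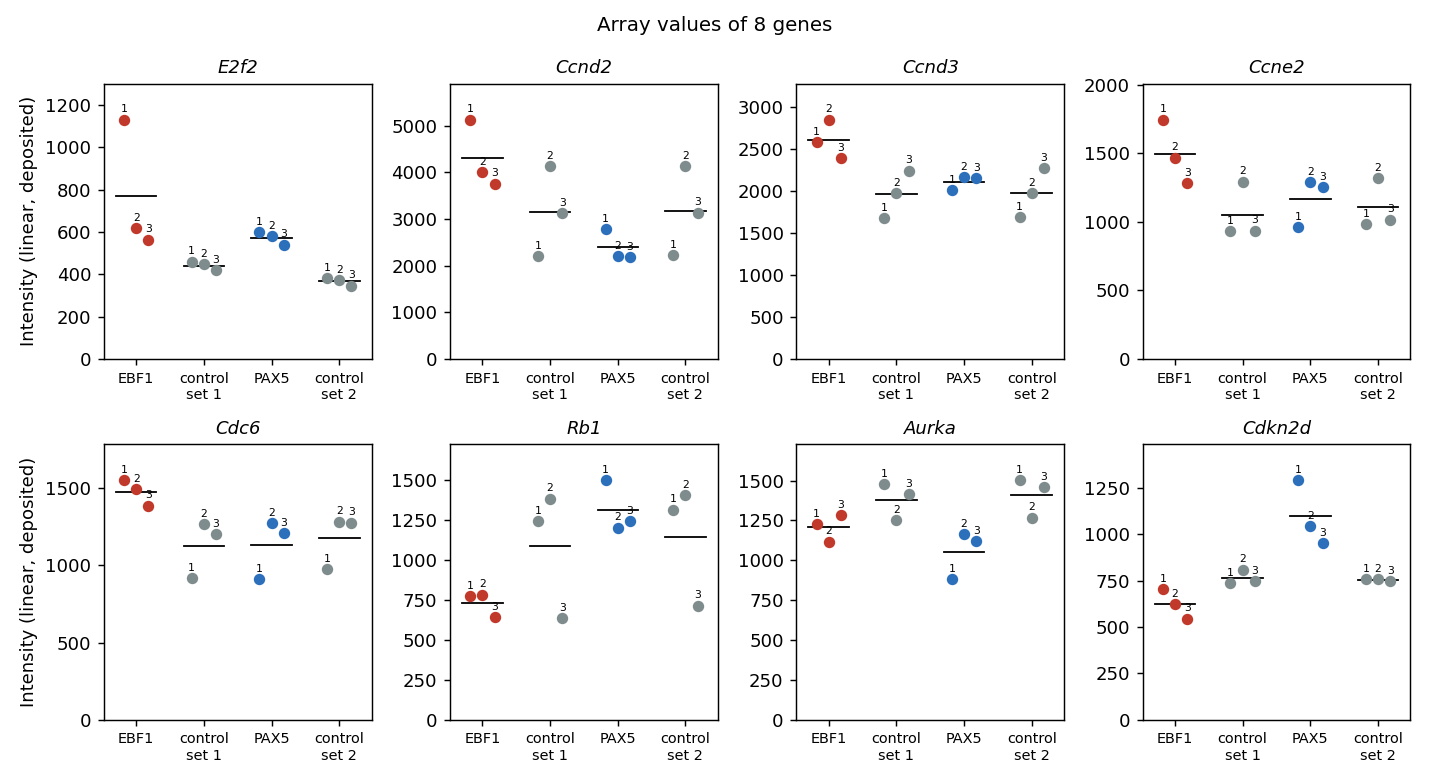
Intensity on each array (vertical axis, deposited linear scale, from 0) for E2f2, Ccnd2, Ccnd3, Ccne2, Cdc6, Rb1, Aurka and Cdkn2d, with points for arrays 1 to 3, lines at the mean over the arrays drawn, and the EBF1 and PAX5 arrays each left of the controls of their own set. E2f2 is higher on all 3 EBF1 arrays and all 3 PAX5 arrays than on every control of the set, whereas Ccnd2 overlaps its controls in both comparisons.

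Among the CDK inhibitors, Cdkn1a and Cdkn2c had the widest intervals of the 43 genes, and none of the 3 inhibitors passed the test. Cdkn1a (p21, an inhibitor induced by p53) read 2778, 3840 and 1772 on the EBF1 arrays, against 2067, 2912 and 1626 in the first-set controls, and 2395, 1439 and 1467 on the PAX5 arrays, against 2072, 2914 and 1640 in theirs. It was highest on array 2 of the EBF1 and control groups and on array 1 of the PAX5 group, the arrays on which most cell cycle genes were lowest. Its differences were 0.31 with EBF1 (SE 0.32) and -0.20 with PAX5 (SE 0.36), and leaving out 1 array moved the first to between 0.05 and 0.61.

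Cdkn2c (p18, an inhibitor of CDK4 and CDK6) read 741, 324 and 509 on the EBF1 arrays, against 610, 220 and 554 in the first-set controls, and 512, 565 and 528 on the PAX5 arrays, against 645, 233 and 606 in theirs. Control array 2 was far below the other 2. Without it, the Cdkn2c differences of 0.23 with EBF1 and 0.22 with PAX5 became -0.22 and -0.23. EBF1 array 2 was the lowest of its group as well, and the EBF1 and control pairs of equal number lay at 0.27, 0.52 and -0.12. Cdkn1b (p27) stayed between 794 and 971 on the EBF1 arrays, against 633 to 898 in their controls, and between 726 and 987 on the PAX5 arrays, against 654 to 975 in theirs, with differences of 0.09 and 0.03. Both the EBF1 and the PAX5 ranges of these inhibitors overlapped those of their controls.

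Of the E2F and Rb genes, E2f2 stood out. E2f2 (an activator E2F, whose promoter window is printed above) read 1132, 620 and 564 on the EBF1 arrays, against 460, 447 and 419 in the first-set controls. On the PAX5 arrays it read 600, 582 and 541, against 384, 375 and 347 in the second-set controls. It was the only 1 of the 43 genes above every control in both comparisons, and the share of all genes above in both was not counted. In the single comparisons, all arrays of the group lay above every control for 4 of the 43 genes with EBF1, beside 7.67% of all genes. With PAX5 this held for 1 of the 43, beside 9.34% of all genes. The differences were 0.71 with EBF1 (SE 0.23, 95% interval 0.18 to 1.25, 1.64-fold, limma adjusted p = 0.288) and 0.63 with PAX5 (SE 0.26, 95% interval 0.04 to 1.23, limma adjusted p = 0.495). Neither passed over all genes, and EBF1 array 1 carried part of the first: without it the EBF1 difference was 0.41. Fitted on the second-set arrays alone, the PAX5 difference of 0.62 had a limma adjusted p of 0.0386, a fit that counts the near-identical PAX5 arrays 2 and 3 as separate samples. A further E2f2 probe set lay at 0.75 with EBF1 and 0.45 with PAX5. The EBF1 and PAX5 comparisons share their controls, so these values are not independent of each other.

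Rb1 (the retinoblastoma protein) read 772, 782 and 644 on the EBF1 arrays, against 1242, 1382 and 634 in the first-set controls, a difference of -0.49 (SE 0.26, 95% interval -1.07 to 0.10, limma adjusted p = 0.521). Control array 3 lay below all 3 EBF1 arrays, so the groups overlapped; the difference was -0.83 without that array and -0.28 without control array 2. With PAX5 it read 1497, 1201 and 1244, against 1313, 1406 and 714, a difference of 0.30. E2f1, another activator, lay at -0.16 with EBF1 and 0.13 with PAX5 by its brightest probe set. Its dimmer probe sets lay at 0.29 and 0.13 with EBF1 and at -0.03 and 0.38 with PAX5, so the side with EBF1 depended on the probe set. E2f8, an E2F that represses transcription, lay at -0.01 and -0.12.

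Among the cyclins and the kinase of S phase, both cyclin E genes were measured. By their brightest probe sets they lay on opposite sides of 0 with EBF1. Ccne2 (cyclin E2) read 1747, 1469 and 1281 on the EBF1 arrays, against 931, 1295 and 937 in the first-set controls, a difference of 0.51 (SE 0.18, 95% interval 0.10 to 0.92, limma adjusted p = 0.328). Its lowest EBF1 array lay just below the highest control. On the PAX5 arrays Ccne2 read 964, 1293 and 1255, against 986, 1318 and 1017, a difference of 0.01. Ccne1 (cyclin E1) read 310, 342 and 414 with EBF1, against 401, 361 and 552, and 332, 393 and 383 with PAX5, against 391, 374 and 588. It lay at -0.28 with EBF1 and -0.29 with PAX5, or at -0.10 and -0.09 without control array 3, and the ranges overlapped in both comparisons. A further, dimmer Ccne1 probe set lay at 0.27 with EBF1 and -0.15 with PAX5. The side on which Ccne1 lay with EBF1 therefore depended on the probe set. Ccna2 (cyclin A2) and its partner Cdk2 lay between -0.16 and 0.17 in both comparisons.

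The origin licensing genes, which prepare DNA for replication, lay above the controls with EBF1 in 7 of 8 cases and below them with PAX5 in 7 of 8, by small amounts. Cdc6 (the loader of the MCM helicase) read 1552, 1497 and 1387 on the EBF1 arrays, against 916, 1269 and 1201 in the first-set controls. The groups did not overlap, and the difference was 0.40 (SE 0.16, 95% interval 0.03 to 0.77, limma adjusted p = 0.399), or 0.26 without control array 1. With PAX5 it read 910, 1276 and 1210, against 976, 1285 and 1278, a difference of -0.14.

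Mcm4 (a helicase subunit) read 3975, 3422 and 3404 on the EBF1 arrays, against 2899, 2856 and 3188 in the first-set controls, also without overlap, with a difference of 0.27 (SE 0.12, limma adjusted p = 0.437). With PAX5 it lay at 0.12, the only licensing gene above 0 by the brightest probe sets. A further Mcm4 probe set, nearly as bright, lay at 0.08 with EBF1 and -0.005 with PAX5. Mcm2, Mcm3, Mcm5, Mcm6 and Mcm7, the other subunits, lay between 0.00 and 0.11 with EBF1 and between -0.13 and -0.04 with PAX5. Mcm2 read 3519, 3079 and 3428 on the EBF1 arrays, against 3012, 2870 and 3607, and 2733, 3276 and 3249 on the PAX5 arrays, against 2989, 2856 and 3553. The arrays of Mcm2 overlapped those of the controls in both comparisons.

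Cdt1 (the partner of CDC6 in loading) read 2453, 2987 and 2770 on the PAX5 arrays, against 3317, 3097 and 3612 in the second-set controls. The groups did not overlap, and the difference was -0.33 (SE 0.14, 95% interval -0.64 to -0.01, limma adjusted p = 0.504). Without PAX5 array 1 it was -0.21. With EBF1 it lay at -0.02.

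The genes of replication and nucleotide supply followed the same sides, with 4 of 4 above 0 with EBF1 and 4 of 4 below 0 with PAX5, and none passed the test. Pcna (the sliding clamp of DNA polymerase) read 9296, 8079 and 8428 on the EBF1 arrays, against 8287, 6988 and 9220 in their controls, and 7315, 8277 and 7803 on the PAX5 arrays, against 7971, 6785 and 8796 in theirs, with differences of 0.08 and -0.03. Rrm2 (a subunit of ribonucleotide reductase) read 4461, 3367 and 3463 with EBF1, against 3120, 2963 and 3502, a difference of 0.23 with overlap that was 0.10 without EBF1 array 1. Rrm1, the other subunit, lay at 0.07 and -0.11. Tyms (thymidylate synthase) was dim, at 108, 123 and 121 on the PAX5 arrays, against 153, 133 and 162 in the second-set controls. These did not overlap, and the PAX5 difference was -0.33 (SE 0.20, limma adjusted p = 0.691), beside 0.11 with EBF1. Its other 3 probe sets, dimmer still, lay at 0.04, 0.01 and -0.11 with PAX5, and the mean over all 4 gave -0.10. Taking licensing and replication genes as 12, 11 were above 0 with EBF1 and 1 with PAX5, but both counts moved when 1 array was left out. The PAX5 count was 10 of 12 without PAX5 array 1 and 7 of 12 without control array 3. The EBF1 count was 6 of 12 without control array 2 and 7 of 12 without EBF1 array 3. Leaving out control array 2 kept EBF1 array 2, the array of the same number, which was the low array of its group too.

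The 6 genes of the G2/M transition had a median of -0.25 with PAX5 and -0.10 with EBF1, and all 6 lay below 0 with PAX5. Aurka (Aurora A, a kinase of the centrosome) read 880, 1164 and 1122 on the PAX5 arrays, against 1502, 1268 and 1461 in the second-set controls. The groups did not overlap, and the difference of -0.48 (SE 0.15, 95% interval -0.83 to -0.14, limma adjusted p = 0.318) was -0.30 without PAX5 array 1. With EBF1 Aurka read 1228, 1118 and 1283, against 1477, 1254 and 1414, a difference of -0.19 with overlap. Cdk1 (the kinase of mitotic entry) read 3364, 4124 and 3938 on the PAX5 arrays, all below the second-set controls at 4198, 4135 and 4757. Its difference was -0.24 (SE 0.13, limma adjusted p = 0.669), or -0.11 without PAX5 array 1, and the closest arrays were 4124 with PAX5 against 4135 in the controls. All arrays of the group lay below every control for 4 of the 43 genes with PAX5, Aurka, Cdt1, Cdk1 and Tyms, beside 8.95% of all genes, and for 0 of the 43 with EBF1, beside 6.76%.

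The ranges of the other G2/M genes overlapped those of their controls in both comparisons. Ccnb2 (cyclin B2) read 3312, 2354 and 3267 with EBF1, against 3814, 3105 and 3775, a difference of -0.27 (-0.11 without EBF1 array 2), and lay at -0.23 with PAX5. Plk1 (Polo-like kinase 1) read 1083, 1422 and 1378 with PAX5, against 1496, 1253 and 1969, a difference of -0.32 (-0.14 without PAX5 array 1 and -0.15 without control array 3), and Foxm1 (the driver of G2/M transcription) read 198, 237 and 246, against 302, 212 and 295, a difference of -0.27. With EBF1 they lay at -0.13 and 0.09. Aurkb (Aurora B) lay at -0.04 with EBF1 and -0.16 with PAX5.

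The 9 genes of the spindle, its checkpoint and mitotic chromatin had a median EBF1 difference of -0.01 and a median absolute difference of 0.03, the smallest of any role, with all 9 intervals within a 1.5-fold change. With PAX5 all 9 lay below 0, between -0.28 and -0.06, and 4 of the 9 intervals were within a 1.5-fold change. Mki67 (Ki-67, the usual mark of dividing cells) read 4218, 2917 and 4457 on the EBF1 arrays, against 4297, 3073 and 4266 in the first-set controls, a difference of -0.01 (SE 0.20). On the PAX5 arrays it read 3173, 3632 and 3550, against 4229, 3064 and 4222, a difference of -0.17 (SE 0.22). Array 2 was the low one in both the EBF1 group and the controls, and PAX5 array 1 was the low one of its group.

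Top2a (topoisomerase II alpha, which untangles DNA before mitosis) read 4897, 4060 and 4969 with EBF1, against 4902, 4481 and 5616, and 4155, 4540 and 4287 with PAX5, against 4760, 4390 and 5421. Its differences were -0.11 and -0.18. Of the 105 probe sets of the 43 genes, tested over all 45037 probe sets, 0 passed for EBF1, 0 for PAX5 and 1 for the difference between the factors, a second Top2a probe set. That probe set lay at -0.01 with EBF1 and -0.76 with PAX5 (limma adjusted p = 0.0536), with a difference between them of 0.76 (limma adjusted p = 0.0379), where the brighter Top2a probe set gave 0.07. Mad2l1 (MAD2, the checkpoint signal) read 1795, 2420 and 2364 with PAX5, against 2616, 2208 and 2766, a difference of -0.28, or -0.07 without PAX5 array 1. Bub1 (a checkpoint kinase) read 1575, 1936 and 1844, against 2128, 1864 and 2118. Cenpa (the histone of centromeres) read 3123, 2474 and 3153 with EBF1, against 3491, 2928 and 3573, a difference of -0.19. The remaining genes Bub1b, Cdc20, Birc5 and Kif11 overlapped their controls in both comparisons.

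Of the 15 G2/M and mitotic genes together, 0 were above 0 with PAX5 and the median was -0.20. Without PAX5 array 1, 2 of the 15 were above 0 and the median was -0.07; over all 43 genes, 21 were then above 0 in place of 9, with a median of -0.02, and 15 were without control array 3. The EBF1 count moved as far: 25 of 43 above 0 as reported, 14 without control array 2, 34 without control array 3, 17 without EBF1 array 1, 34 without EBF1 array 2 and 18 without EBF1 array 3. Each of these fits left out 1 array number in 1 group and kept the array of that number in the other group. When each EBF1 array was set against the control array of the same number, 10 of the 43 genes were higher in all 3 pairs, 17 in 2, 7 in 1 and 9 in none. Over all genes, 20.4% were higher in all 3 pairs and 17.0% lower in all 3, so both counts lay near the shares over all genes. The 9 genes lower in every pair were Cdk6, Ccne1 and 7 of the 15 G2/M and mitotic genes: Ccnb2, at -0.20, -0.40 and -0.21 in the 3 pairs, Aurka, at -0.26, -0.16 and -0.14, Cenpa, at -0.16, -0.24 and -0.18, and Plk1, Cdk1, Bub1b and Top2a, each between -0.20 and 0.00. With the replicate number as a block, 0 of the 43 genes passed limma's test for EBF1.

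The EBF1 and PAX5 changes were then set against each other in the same model, which asks whether the factors differ. By limma 0 of the 43 genes passed, where 1.94% of all genes did (353 genes, or 207 with the replicate block), and 4 were higher and 1 lower at an unadjusted p under 0.05, beside 8.79% and 8.22% of all genes. The EBF1 change lay above the PAX5 change for 36 of the 43 (83.7%, beside 53.5% of all genes), with a median of 0.15 beside 0.02. Under the alternatives this count ran from 31, without PAX5 array 1 (median 0.05), to 40, without EBF1 array 2. The genes moved together from array to array, so they are not independent counts. The EBF1 change was above the PAX5 change by 0.79 for Ccnd2 (SE 0.26, 95% interval 0.20 to 1.38, limma adjusted p = 0.174), by 0.70 for Ccnd1 (limma adjusted p = 0.29), by 0.53 for Cdc6 (limma adjusted p = 0.189) and by 0.49 for Ccne2 (limma adjusted p = 0.261). Without EBF1 array 3 the value was 0.38 for Ccnd1, and without PAX5 array 1 it was 0.31 for Cdc6 and 0.30 for Ccne2. For Rb1 the EBF1 change minus the PAX5 change was -0.79 (SE 0.29, 95% interval -1.44 to -0.13, limma adjusted p = 0.213). For E2f2 the changes differed by 0.08 (95% interval -0.52 to 0.68).

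The rest of the pathway was taken as 111 further genes of the same processes, of which 108 were measured. With EBF1, 0 of the 108 passed, and 69 lay above 0 (63.9%, beside 53.1% of all genes) with a median of 0.05; 7 were higher and 0 lower at an unadjusted p under 0.05, where 6.29% and 5.33% of all genes were. With PAX5, 0 of the 108 passed, and 8 lay above 0 (7.41%, beside 48.1% of all genes) with a median of -0.17; 1 was higher and 4 lower at an unadjusted p under 0.05, where 5.33% and 4.13% of all genes were. The PAX5 count of 8 above 0 moved with the arrays used: it was 45, with a median of -0.03, without PAX5 array 1, 29 without control array 3, 17 without control array 1 and 18 with all 12 arrays counted separately or with the replicate block. Among the 38 of them in licensing, firing and the replication fork, 2 lay above 0, or 19 without PAX5 array 1 and 14 without control array 3. By process, the 15 genes of origin licensing and firing lay above 0 with EBF1 in 15 cases (median 0.21) and below 0 with PAX5 in 14 (median -0.16). This EBF1 count is given with all arrays only. That of the 12 licensing and replication genes described earlier fell from 11 to 6 without control array 2, in a fit that kept EBF1 array 2. The 25 genes of the mitotic spindle lay above 0 with EBF1 in 13 cases (median 0.00) and below 0 with PAX5 in 24 (median -0.20). The EBF1 change lay above the PAX5 change for 98 of the 108 (90.7%, beside 53.5% of all genes), or for 92 with all 12 arrays counted separately. For this difference 18 were higher and 4 lower at an unadjusted limma p under 0.05, beside 8.79% and 8.22% of all genes.

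The smallest EBF1 p-values among these 108 belonged to 3 genes of replication and its checkpoint, none past the threshold. Pold1 (the catalytic subunit of DNA polymerase delta) read 2807, 1752 and 2133 on the EBF1 arrays, against 1495, 1320 and 1550 in the first-set controls, a difference of 0.59 (limma adjusted p = 0.26). Chek1 (the kinase that guards stalled forks) read 1616, 1390 and 1548, against 1141, 1082 and 1128, a difference of 0.43 (limma adjusted p = 0.253). Orc2 (a subunit of the origin recognition complex) read 692, 803 and 625, against 431, 624 and 450, a difference of 0.49 (limma adjusted p = 0.283). In all 3 the EBF1 arrays lay above every control, for Orc2 narrowly. The smallest PAX5 p-values belonged to Cdkn2d, Cdc7 and Anln. Cdc7 (a kinase that fires origins) read 700, 797 and 790 on the PAX5 arrays, against 1039, 904 and 1025 in the second-set controls, a difference of -0.40 (limma adjusted p = 0.306). Anln (anillin, of the cleavage furrow) read 1209, 1451 and 1396, against 1834, 1591 and 1759, a difference of -0.39 (limma adjusted p = 0.338). Both lay below every control.

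Cdkn2d (p19INK4d, an inhibitor of CDK4 and CDK6) was the only gene of the 43 and the 108 to pass in the model with 8 samples and an added constant of 16. It passed for the difference between the factors. There 0 of the 43 and 1 of the 108 passed, where 1.94% of all genes did. Under the alternatives E2f2 passed with PAX5 in the fit given above, and Cdc7 passed for the difference with an added constant of 64 (0.45, limma adjusted p = 0.0495). Cdkn2d read 705, 622 and 545 on the EBF1 arrays, against 736, 809 and 749 in the first-set controls, and 1290, 1045 and 951 on the PAX5 arrays, against 757, 758 and 747 in the second-set controls. Every EBF1 array lay below every control and every PAX5 array above. The EBF1 difference of -0.29 (SE 0.14, limma adjusted p = 0.473) and the PAX5 difference of 0.58 (SE 0.16, 95% interval 0.22 to 0.93, limma adjusted p = 0.221) did not pass. The EBF1 change minus the PAX5 change was -0.87 (SE 0.16, 95% interval -1.23 to -0.51, limma adjusted p = 0.0325). The difference kept its sign under all 17 alternatives and passed in 9 of them, with limma adjusted p-values from 0.021 to 0.388. With the replicate number as a block it was -0.81 (limma adjusted p = 0.0987), with all 12 arrays counted separately -0.81 (0.0742) and with an added constant of 1 it was -0.89 (0.0699). The call was also lost without control array 2 (limma adjusted p = 0.056), control array 3 (0.0549), EBF1 array 1 (0.0519), EBF1 array 2 (0.0911) or PAX5 array 1 (0.388, at -0.69).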

How the data were processed

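The study measured total RNA on 12 Affymetrix arrays, 3 in each of 4 groups, and the groups were taken from the sample titles. The deposited intensities are linear, 1 value per probe set and array; the cRNA carried biotin, per the labels' protocols. The summary and normalization behind them are not given in the sources used here, and the array medians were 55.1 to 60.6 in the first set and 65.3 to 68.9 in the second. Per the labels' protocols the medium held 4% serum, SCF and Flt3L (10 ng/ml each) and IL-7 (5 ng/ml).

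By the platform's annotation, 34945 of the 45037 probe sets had a single symbol, 932 had several and 9160 had none. For each gene the brightest single-symbol probe set was taken. No further normalization and no filter on level was applied, and 0 value columns were left out. Log2(intensity + 16) was fitted with limma 3.58.1 in R 4.3.3 (with data.table, version 1.17.8) over 18193 genes, each factor against the controls of its own set, with the difference of both changes in the same fit. Each gene's offset between both control sets was taken out first, and arrays that looked like 1 hybridisation (equal-numbered controls, PAX5 arrays 2 and 3) were averaged. This left 8 samples, 5 residual and 3.53 prior degrees of freedom. Figures were made in Python 3.11.15 with pandas 2.3.3 and matplotlib 3.10.9.

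Deviations of control and EBF1 arrays of equal number correlated at 0.206, 0.405 and 0.223 over all genes, all above 0.1, so these numbers were taken to pair the arrays. For control and PAX5 arrays the values were 0.24, 0.082 and 0.183, so by the same limit over all genes these were taken to share only a number; over the 7313 genes with a mean log2 above 8 they were 0.501, 0.236 and 0.352, all above it, so pairing there is undecided. Pairing entered only the fit with a replicate block.

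The genes, the further pathway genes and the marker lists for progenitor, B-lineage, stroma, myeloid, and T and NK cells were chosen with earlier results of these data known. By the naming rule, values on every array could be given for the 12 of these genes with the smallest p in each comparison, since none was past the threshold, and were given whatever their p for 10 genes, the D-type cyclins, Cdkn1a, Cdkn1b, Cdkn2c, Mcm2, Pcna, Top2a and Mki67. Of the further pathway genes, those past the threshold or the 3 with the smallest p are named. Simulated data for the EBF1 comparison had 200 of 18193 genes changed, by 1 or 2 on the log2 scale. Of the genes changed by 1, 68.8% were recovered, and of those changed by 2, 92.3%. In these data 8 unchanged genes were called and 94.5% of the intervals held the true value. Smaller changes were not simulated, whereas the EBF1 differences of the cell cycle genes ran from -0.49 to 0.71. The recovery rates therefore do not tell how often changes of that size would be found.

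Alternatives were all 12 arrays counted separately, added constants of 1 and 64, a filter at a mean log2 of 6, quantile normalization within each set, the mean of all probe sets of a gene, limma's trend option, the arrays of 1 set alone, the replicate block and leaving out each array. Listed genes with no single-symbol probe set were not analysed here.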

Additional observations from a re-analysis of the deposited data

Results flagged for a closer look

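Cdkn2d was the single result singled out, because the EBF1 and PAX5 changes differed in the test of the difference itself. The EBF1 change minus the PAX5 change was -0.87 on the log2 scale (limma adjusted p = 0.0325). It was 1 call among the 108 further pathway genes, where 1.94% of all genes passed for the difference. All 3 EBF1 arrays lay below the first-set controls and all 3 PAX5 arrays above the second-set controls, but the call was lost in 8 of the 17 alternatives.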

How the results depend on the processing

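The count of the 43 cell cycle genes past the threshold was 0 in every comparison and under every alternative, with 1 exception: E2f2 passed with PAX5 when only the arrays of that set were used (count 1, limma adjusted p = 0.0386). That fit counts PAX5 arrays 2 and 3 separately. With the replicate block E2f2 with PAX5 had a limma adjusted p of 0.0697. The counts over all genes moved more, and the causes were not tested. With EBF1, 40 genes passed as reported, 201 with all 12 arrays counted separately, 23 with an added constant of 1, 10 with 64, 10 with the arrays of the set alone, 5 with the replicate block, and 10 to 406 when 1 array was left out (over 1.5 times fewer without control array 1, 2 or 3, EBF1 array 2 or PAX5 array 1, and more without EBF1 array 3). With PAX5, 159 passed as reported, 357 with all 12 arrays, 84 with a constant of 1, 244 with the set alone, 251 with the replicate block, and 28 to 176 when 1 array was left out (over 1.5 times fewer without control array 1, 2 or 3 or PAX5 array 1). For the difference, 353 passed as reported, 156 with all 12 arrays, 194 with a constant of 1, 207 with the replicate block, and 55 to 575 when 1 array was left out (over 1.5 times fewer without EBF1 array 1 or 2 or PAX5 array 1, and more without EBF1 array 3).

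No difference that changed sign was past the threshold. With EBF1, Mki67 became 0.011 under quantile normalization, and Top2a 0.0015 with the mean of all probe sets. With PAX5, Cdkn1b became -0.030 with all 12 arrays, with the set alone and with the replicate block. When 1 array was left out, the EBF1 difference ran from -0.172 to 0.177 for Mki67, from -0.072 to 0.176 for Cdkn1b, from -0.219 to 0.524 for Cdkn2c and from -0.026 to 0.174 for Pcna. The PAX5 difference ran from -0.155 to 0.135 for Cdkn1b, from -0.024 to 0.188 for Ccnd3, from -0.558 to 0.018 for Cdkn1a, from -0.234 to 0.470 for Cdkn2c, from -0.125 to 0.065 for Mcm2, from -0.127 to 0.060 for Pcna and from -0.236 to 0.046 for Ccnd1. In 1000 further cases, a named gene under an alternative kept its side of 0 and of the threshold.

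The precision is set by 3 EBF1, 2 PAX5 and 3 control samples. Without PAX5 array 1 the PAX5 group is 1 sample, whose spread is assumed to be that of the other groups.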
